A study of Homo sapiens with 9 samples.

Results

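The 39 DNA replication genes described here are a named list of origin, helicase, polymerase, clamp, cyclin E and S-phase control genes. They were found on the array by their gene symbols, which gave 76 probe sets of 54613 tested, and 39 genes of 19775 with a named probe set. Transcript levels were measured on 9 single-colour arrays of HuCCT1, a long-established line of human bile duct cancer cells. The design asks how the transcriptome differs when constitutively active YAP1 is overexpressed. In the control group, 4 arrays carried total RNA of cells transfected with an empty vector. In the other group, 5 arrays carried total RNA of cells transfected with YAPS127A, a form of the transcriptional co-activator YAP1 that lacks a serine used by the Hippo pathway kinases to hold it out of the nucleus. All cells were kept in the same serum-containing medium. The labels number the samples within a group without saying whether they were separate cultures or transfections, how long after transfection the cells were taken, or whether a group was a pool or a clone. P-values therefore reflect only how far these samples spread, and that spread may be technical.

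A cell copies its DNA by loading a ring-shaped helicase at origins and switching it on in S phase. ORC, CDC6 and CDT1 place the MCM2 to MCM7 ring on DNA in an inactive state, which is called licensing. CDC45 and the GINS complex then join the ring to form the active helicase, and polymerases follow it, held to the template by the PCNA clamp that the RFC complex loads. Most of these genes are transcribed in late G1 and S phase under the control of E2F transcription factors, and YAP1 acts on transcription mainly through TEAD factors.

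All 39 genes gave mean signals above the median of all log2 values in both groups. Of all 19775 genes, 12494 lay above it in at least 1 group, so this alone does not show that a transcript was present. Both markers of the list were bright: MCM4 had the log2 signal 12.71 ± 0.15 (SD, n = 4) with the empty vector and GINS2 had 10.71 ± 0.09 (SD, n = 4). The array medians lay between 5.95 and 5.97. The SD of the difference between a pair of arrays was 0.19 to 0.25 where both came from one group and 0.41 to 0.44 where they did not. The 3' minus 5' signal of actin, a sign of RNA length, ran from 0.888 to 1.69, highest in empty vector replicate 3 and YAPS127A replicate 1. YAP1 itself differed by +0.15 (SE 0.06, limma adjusted p = 0.121), and whether its probe sets can read the construct is not known, so it does not check the labels. ANKRD1, a known YAP1 target, rose by 2.24 (SE 0.13, adjusted p = 3.38e-07). All 6 epithelial identity genes (KRT7, KRT19, KRT8, KRT18, EPCAM and CDH1) were bright in both groups, with means of 12.9 to 14.3. Of 12 markers of fibroblasts, endothelium and leukocytes, 4 lay above the median signal in at least 1 group (COL1A1, LUM, PECAM1 and CD14). Their mean log2 signal over the list was 5.32 to 5.49 on empty vector arrays and 5.43 to 5.54 on YAPS127A arrays, with COL1A2, COL3A1, DCN, PTPRC and CD3E below the median throughout. LUM was higher by 1.45, and COL1A1 and CD14 were lower (-0.70 and -0.45); their part in the results was not tested.

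The promoters of some genes that rose are printed first, to show where E2F and TEAD motifs lie. The activity of these factors was not measured. RefSeq windows of GRCh38.p14 that run from 250 bases before to 50 bases after a transcription start were on hand for 34 of the 39 genes. CCNE2, E2F8, GINS4, MCM4 and MCM5 had no entry. The sequences below read 5′ to 3′ on the gene's strand, each from the start of the window to the first bases of the transcript. Capitals mark exact matches, on either strand, to the E2F motifs TTTCCCGC, TTTCGCGC, TTTGCCGC and TTTGGCGC or to the TEAD motif GGAATG. GINS1 lies at chr20:25407423-25407722 (plus strand), GINS2 at chr16:85688905-85689204 (minus strand), GINS3 at chr16:58392221-58392520 (plus strand), POLA2 at chr11:65261712-65262011 (plus strand) and RFC3 at chr13:33817899-33818198 (plus strand); these are the genes that rose and held an E2F match, apart from CDT1.
GINS1: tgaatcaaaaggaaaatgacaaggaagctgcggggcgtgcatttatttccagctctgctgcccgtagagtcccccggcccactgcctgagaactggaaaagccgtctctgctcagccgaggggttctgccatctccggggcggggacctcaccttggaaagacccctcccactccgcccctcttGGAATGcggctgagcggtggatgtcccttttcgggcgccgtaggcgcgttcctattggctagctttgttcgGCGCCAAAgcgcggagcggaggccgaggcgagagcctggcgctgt
GINS2: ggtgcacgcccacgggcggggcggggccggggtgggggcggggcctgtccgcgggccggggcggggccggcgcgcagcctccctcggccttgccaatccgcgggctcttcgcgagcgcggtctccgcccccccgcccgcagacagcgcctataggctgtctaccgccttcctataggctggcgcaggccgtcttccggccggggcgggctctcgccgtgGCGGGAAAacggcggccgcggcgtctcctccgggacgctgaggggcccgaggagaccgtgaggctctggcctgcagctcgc
GINS3: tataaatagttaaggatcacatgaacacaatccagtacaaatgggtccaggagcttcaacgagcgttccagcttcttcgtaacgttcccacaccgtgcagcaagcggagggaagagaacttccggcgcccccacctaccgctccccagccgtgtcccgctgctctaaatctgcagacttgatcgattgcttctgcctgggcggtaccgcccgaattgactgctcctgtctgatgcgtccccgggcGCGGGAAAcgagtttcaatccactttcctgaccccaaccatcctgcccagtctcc
POLA2: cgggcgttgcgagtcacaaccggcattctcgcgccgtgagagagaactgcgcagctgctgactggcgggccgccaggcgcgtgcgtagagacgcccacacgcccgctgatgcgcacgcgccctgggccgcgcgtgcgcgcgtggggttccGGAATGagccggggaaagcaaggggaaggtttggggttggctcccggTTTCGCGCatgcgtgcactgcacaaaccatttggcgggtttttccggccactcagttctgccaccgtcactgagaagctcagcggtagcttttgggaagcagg
RFC3: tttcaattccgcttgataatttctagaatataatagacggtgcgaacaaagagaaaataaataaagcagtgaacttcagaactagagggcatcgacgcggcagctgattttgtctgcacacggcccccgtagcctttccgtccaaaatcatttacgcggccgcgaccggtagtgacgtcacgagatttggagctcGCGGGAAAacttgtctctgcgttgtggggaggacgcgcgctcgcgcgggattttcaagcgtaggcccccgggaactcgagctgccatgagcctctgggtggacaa

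The E2F motif was common among the genes of the list that passed the test and among those that did not. The genes that fell, GINS4, CCNE2 and MCM4, have no window, so all called genes compared here rose. At least 1 of the 4 E2F motifs stood in the windows of 20 of 34 genes. The share was 3.99% of all 27305 genes with a window and 6.38% of the 10168 brighter array genes that have a window. Of the 8 genes with a window whose level changed, 6 held it (CDT1, GINS1, GINS2, GINS3, POLA2 and RFC3), and ORC1 and MCM10 did not. Of the 26 whose level did not pass the test, 14 held it, among them PCNA, E2F1, MCM2 and MCM7. The distance to the annotated start was short in the printed windows: the match begins 31 bases before the start in GINS2, 5 before it in GINS3, 55 before it in RFC3, 53 before it in POLA2, and 5 bases after it in GINS1. The TEAD motif stood in 7 of 34 (CHAF1A, GINS1, MCM7, ORC6, POLA2, POLD1 and PRIM1), against 16.7% of all genes with a window and 15% of the brighter genes. The general promoter element CCAAT was found in 20 of 34 genes (39.7% of all genes with a window, 42.7% of the brighter genes). TTTGAA, the element of many mitotic genes, was found in none of 34 (18.2% of all genes with a window, 13.8% of the brighter genes). The windows of the list had a median GC content of 65.8%, against 58.7% over all windows and 64.7% over those of the brighter genes, and these matches describe letters only.

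With YAPS127A, 9 of the 39 replication genes rose, 3 fell and 27 did not pass the test. By its brightest probe set, no member changed by as much as 2-fold. The genes that rose were MCM10, RFC3, GINS2, ORC1, CDT1, MCM5, POLA2, GINS3 and GINS1, by 1.17-fold to 1.51-fold. GINS4, CCNE2 and MCM4 fell, by 1.68-fold, 1.41-fold and 1.27-fold. The count of 12 of 39 (30.8%) stands beside 28.7% of all genes called by limma at a Benjamini-Hochberg adjusted p under 0.05, and 41.2% of the 12494 genes with a signal above the median, where all 39 lie. By direction, 14.5% of all genes rose and 14.2% fell, and 21% and 20.2% of the brighter genes. The share of members called is near that of all genes and below that of the brighter genes. The median log2 difference, YAPS127A minus empty vector, was +0.05 over the list and +0.005 over all genes, and the median size of a difference was 0.11 against 0.13 over all genes and 0.19 over the brighter ones. The groups did not overlap in 14 of 39 genes, against 28.3% of all genes and 41.4% of the brighter ones. In bulk RNA a change in the share of cells in S phase cannot be told apart from a change of RNA per cell.

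**Figure D1:**
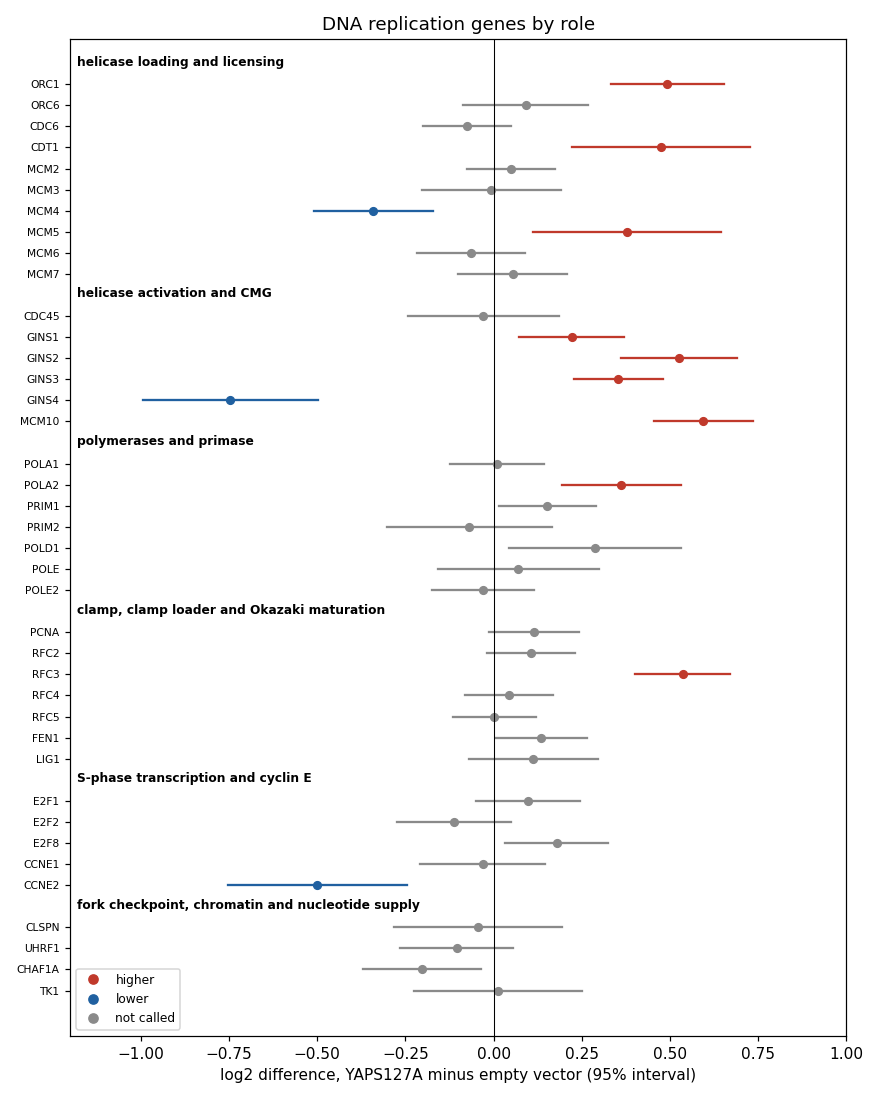
Log2 difference (YAPS127A, n = 5, minus empty vector, n = 4) of the brightest probe set of each of 39 replication genes, with its 95% interval from limma, grouped by role. Red points rose, blue points fell and grey points did not pass an adjusted p of 0.05; the helicase activation group holds 4 of the 9 rises and the deepest fall.

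Origin licensing genes moved in part. ORC1, the largest ATPase subunit of the origin recognition complex, had log2 signals of 8.32, 8.27, 8.13 and 8.21 with the empty vector and 8.67, 8.91, 8.71, 8.63 and 8.69 with YAPS127A. Every YAPS127A array lay above every empty vector array, and the difference was +0.49 (SE 0.07, adjusted p = 0.000416). CDT1, the loader that brings MCM rings to ORC, read 8.56, 8.94, 9.10 and 8.78 with the empty vector and 9.41, 9.09, 9.35, 9.23 and 9.51 with YAPS127A. The groups touched, because YAPS127A replicate 2 lay just below empty vector replicate 3, and the difference was +0.47 (SE 0.12, adjusted p = 0.0099). Its second probe set was also higher, by 0.35 (adjusted p = 0.0124). The other licensing factors did not pass: ORC6, the smallest ORC subunit, differed by +0.09 (95% interval -0.09 to 0.27), and CDC6, the ATPase that works with CDT1, by -0.075 (-0.20 to 0.05).

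Within the MCM2 to MCM7 ring the subunits did not move as a unit. MCM4 had the log2 signals 12.74, 12.91, 12.57 and 12.64 with the empty vector and 12.32, 12.33, 12.48, 12.40 and 12.34 with YAPS127A. All YAPS127A arrays lay below all empty vector arrays, and the difference was -0.34 (SE 0.08, adjusted p = 0.0066). Of its 5 probe sets, 4 fell, by -0.28 to -0.59, and the dimmest differed by +0.08. MCM5 moved the other way, with 9.02, 9.41, 9.21 and 9.04 against 9.79, 9.49, 9.19, 9.66 and 9.62. Here YAPS127A replicate 3 lay among the empty vector arrays, and the difference was +0.38 (SE 0.12, adjusted p = 0.0415). Both probe sets of MCM5 rose, the dimmer one by 0.43 (adjusted p = 0.00351). The call on the brighter one was lost when any 1 of 7 arrays was left out, namely empty vector replicates 1, 3 and 4 and YAPS127A replicates 1, 2, 4 and 5, where the difference was 0.32 to 0.39 and the adjusted p 0.0578 to 0.118. MCM2 (+0.05, 95% interval -0.08 to 0.17), MCM3 (-0.01, -0.20 to 0.19), MCM6 (-0.06, -0.22 to 0.09) and MCM7 (+0.05, -0.10 to 0.21) did not pass. The dimmer probe set of MCM6 differed by -0.34 (95% interval -0.62 to -0.06, adjusted p = 0.079). With the mean over its probe sets MCM6 differed by -0.20 (adjusted p = 0.0762).

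Of the 6 genes that activate the helicase 5 were called, beside 41.2% of the brighter genes. With the brighter neighbours' median removed, as described further on, GINS4 was the 1 of these 6 that passed. MCM10, which helps the loaded ring to open and start, had log2 signals of 9.36, 9.38, 9.35 and 9.33 with the empty vector and 10.06, 9.95, 9.94, 9.98 and 9.80 with YAPS127A. This was the highest difference of the list by brightest probe set, +0.59 (SE 0.06, adjusted p = 3.83e-05) or 1.51-fold. All 3 probe sets of MCM10 rose, by 0.49 to 0.59. CDC45, which bridges the ring and the GINS complex, differed by -0.03 (95% interval -0.24 to 0.18, adjusted p = 0.882).

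The 4 subunits of the GINS complex were all called, 3 higher and 1 lower. GINS2 and GINS3 lie on chromosome 16, where 60.1% of the brighter genes rose, and GINS4 on chromosome 8, where 40.6% fell. GINS2 read 10.62, 10.81, 10.76 and 10.67 with the empty vector and 11.32, 11.16, 11.08, 11.34 and 11.29 with YAPS127A, a rise of 0.52 (SE 0.08, adjusted p = 0.000307). Its 2 dimmer probe sets differed by +0.05 and +0.29 and did not pass. GINS3 had the smallest SD of the list over the empty vector arrays, with 11.48, 11.47, 11.47 and 11.47 against 11.84, 11.88, 11.84, 11.72 and 11.84, a rise of 0.35 (SE 0.06, adjusted p = 0.000741) that its other probe set repeated at 0.38. GINS1 rose less, from 11.96, 11.99, 12.03 and 11.87 to 12.09, 12.09, 12.21, 12.24 and 12.31 (+0.22, SE 0.07, adjusted p = 0.0342). The groups did not overlap, but the call on GINS1 was lost without empty vector replicate 1, 2 or 4 or YAPS127A replicate 3, 4 or 5, at differences of 0.19 to 0.23 and adjusted p of 0.0603 to 0.104. GINS4 fell, from 9.30, 9.11, 8.77 and 9.16 to 8.16, 8.30, 8.26, 8.60 and 8.38, with no overlap. Its difference of -0.75 (SE 0.11, adjusted p = 0.000478) was the largest of the list in either direction by brightest probe set. Of the other probe sets of GINS4, 1 fell by 0.39 (adjusted p = 0.00401) and 2 with signals below the median did not pass (-0.31 and +0.14).

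**Figure D2:**
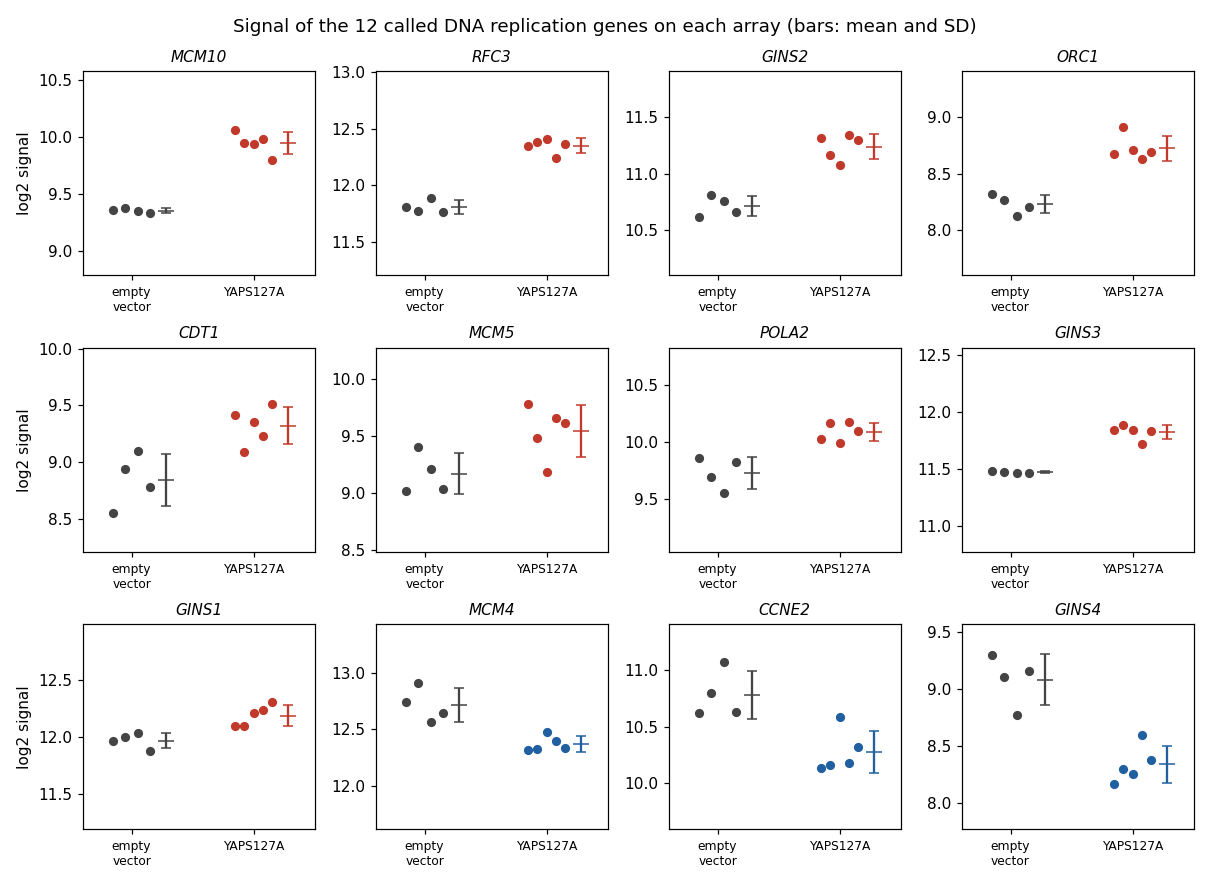
Log2 signal on each array of the 12 replication genes that passed the test, ordered by their difference; points are arrays (4 empty vector, 5 YAPS127A), bars are mean and SD, and each panel spans the same 1.8 log2 units. The groups are separate in all panels but CDT1 and MCM5.

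Among the polymerases and primase, 1 of 7 genes was called, beside 41.2% of the brighter genes. POLA2, the regulatory subunit of polymerase alpha, which lays down the first stretch of each new strand, had log2 signals of 9.86, 9.69, 9.55 and 9.82 with the empty vector and 10.03, 10.17, 10.00, 10.17 and 10.09 with YAPS127A. The groups did not overlap and the difference was +0.36 (SE 0.08, adjusted p = 0.00467), with 2 dimmer probe sets at +0.18 and +0.17 that did not pass. Its catalytic partner POLA1 differed by +0.01 (95% interval -0.12 to 0.14). The primase subunit genes PRIM1 and PRIM2 differed by +0.15 (0.02 to 0.29, adjusted p = 0.107) and -0.07 (-0.30 to 0.16). POLD1, the catalytic subunit of the lagging-strand polymerase delta, differed by +0.29 (0.04 to 0.53, adjusted p = 0.0876), a value that passed without YAPS127A replicate 3 (+0.36, adjusted p = 0.0216). POLE and POLE2, of the leading-strand polymerase epsilon, differed by +0.07 (-0.16 to 0.30) and -0.03 (-0.18 to 0.11).

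All 7 genes of the clamp, its loader and Okazaki fragment maturation had differences above 0, as did 6224 of the 12494 brighter genes. Several of their intervals crossed 0. Of the 7, 1 passed, beside 41.2% of the brighter genes. RFC3, a small subunit of the clamp loader, read 11.81, 11.78, 11.89 and 11.76 with the empty vector and 12.34, 12.39, 12.41, 12.24 and 12.36 with YAPS127A. The groups were far apart, at +0.54 (SE 0.06, adjusted p = 5.9e-05), and a dimmer probe set rose by 0.63. A different probe set of RFC3, with signals of 4.59 to 5.13 with the empty vector and 3.32 to 4.04 with YAPS127A, moved the opposite way, by -1.14 (SE 0.15, adjusted p = 0.000134). Those signals are below the median of all values, and with the mean over its 3 probe sets RFC3 differed by +0.01 (adjusted p = 0.955). The other loader subunits did not pass: RFC2 differed by +0.11 (95% interval -0.02 to 0.23), RFC4 by +0.04 (-0.08 to 0.17) and RFC5 by +0.002 (-0.12 to 0.12). PCNA, the clamp, had 12.08 ± 0.04 (SD, n = 4) and 12.20 ± 0.06 (SD, n = 5), a difference of +0.12 (-0.01 to 0.24, adjusted p = 0.193). FEN1, the flap nuclease, and LIG1, the ligase that seals the fragments, differed by +0.13 (adjusted p = 0.132) and +0.11 (adjusted p = 0.398).

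The E2F and cyclin E genes, which drive entry into S phase, showed 1 change in 5, beside 41.2% of the brighter genes called. CCNE2, which encodes cyclin E2, fell from 10.62, 10.79, 11.07 and 10.63 to 10.14, 10.17, 10.58, 10.18 and 10.32. The highest YAPS127A array lay just under the lowest empty vector array, the difference was -0.50 (SE 0.12, adjusted p = 0.00767), and its other probe set fell by 0.61. CCNE1, which encodes cyclin E1, differed by -0.03 (95% interval -0.21 to 0.15). The activators E2F1 and E2F2 differed by +0.10 (-0.05 to 0.24) and -0.11 (-0.28 to 0.05), and the repressor E2F8 by +0.18 (0.03 to 0.32, adjusted p = 0.076). E2F8 passed with dim probe sets left out (adjusted p = 0.0374) and with the mean over probe sets (adjusted p = 0.0364).

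None of the 4 genes of the fork checkpoint, replication-coupled chromatin and nucleotide salvage was called by its brightest probe set in limma, beside 41.2% of the brighter genes. Beside 6559 of the 12494 brighter genes, 1 of the 4 had an unadjusted limma p under 0.05. That gene was CHAF1A, the large subunit of the histone chaperone that follows PCNA, which differed by -0.20 (95% interval -0.37 to -0.03, adjusted p = 0.0808). All 4 of its probe sets were negative and 2 of the dimmer ones fell, by 0.29 and 0.26, and with the mean over its probe sets CHAF1A passed (-0.22, adjusted p = 0.00951). CLSPN, the adaptor of the ATR checkpoint, differed by -0.04 (-0.28 to 0.19). UHRF1, which carries DNA methylation to the new strand, differed by -0.11 (-0.27 to 0.06), and TK1, the S-phase thymidine kinase, by +0.01 (-0.22 to 0.25).

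Of the 39 genes, 22 have several probe sets and 17 have 1. Over the 76 probe sets, 15 rose, 11 fell and 50 did not pass, beside 23.9% of all probe sets called. Among the 10 called genes with several probe sets, 5 had every probe set called the same way (CDT1, MCM5, GINS3, MCM10 and CCNE2). RFC3 was the 1 gene with probe sets called in opposite directions.

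**Figure D3:**
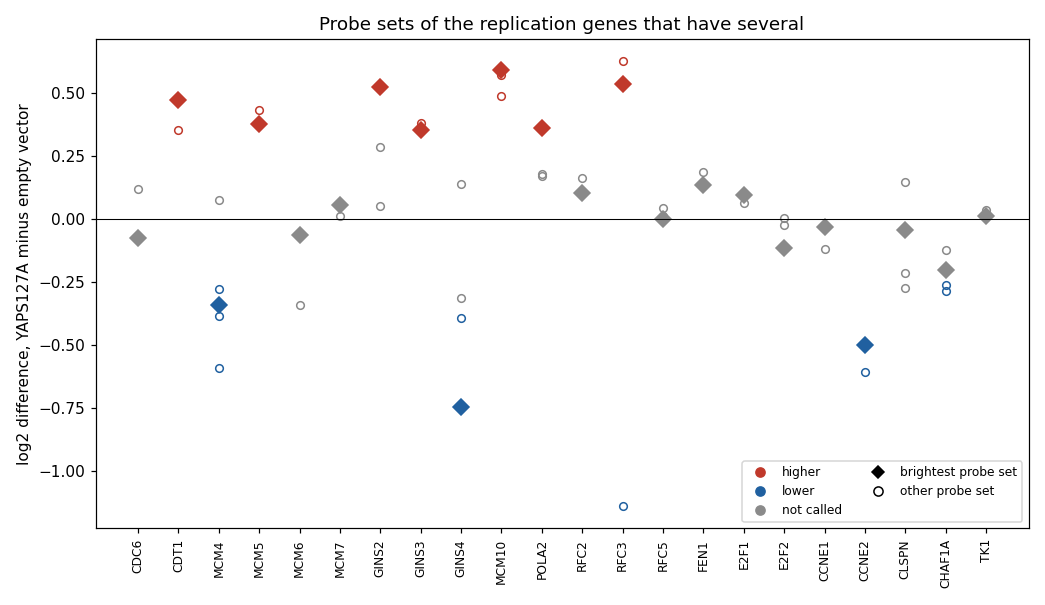
Log2 difference (YAPS127A minus empty vector) of every probe set of the 22 replication genes that have several; diamonds are the brightest probe set of a gene and open circles the others, coloured by whether they rose, fell or did not pass. For MCM10, GINS3, CDT1, MCM5 and CCNE2 every probe set was called in the same direction, and RFC3 has a dim probe set at -1.14 beside rises of 0.54 and 0.63.

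Partners of one complex were compared directly, as the difference of their log2 signals on each array, for 15 pairs. MCM4, GINS2, ORC1 and CCNE2 were already known to differ when the pairs were set, so their tests are not independent of that. In 2-sided exact permutation tests over all 126 splits of the arrays into 4 and 5, 9 pairs passed after Benjamini-Hochberg adjustment over the 15. GINS2 gained 1.27 on GINS4 (p = 0.00794, the smallest this design can give, adjusted p = 0.0238) and 0.30 on GINS1 (exact permutation adjusted p = 0.0298), while its gain of 0.17 on GINS3 did not pass (exact permutation adjusted p = 0.119). MCM4 lost 0.39, 0.33, 0.72 and 0.40 (as the size of the log2 change) on MCM2, MCM3, MCM5 and MCM7, with exact permutation adjusted p of 0.0238 to 0.0397, and 0.28 on MCM6, which did not pass (exact permutation adjusted p = 0.0649). POLA2 gained 0.35 on POLA1 and ORC1 gained 0.40 on ORC6 (exact permutation adjusted p = 0.0238 for each). E2F1 gained 0.21 on E2F2 with no overlap between groups (exact permutation adjusted p = 0.0238), although neither gene passed alone. With the mean over probe sets 7 pairs passed, without E2F1 against E2F2, GINS2 against GINS1 and MCM4 against MCM3 and with CCNE1 against CCNE2. With either neighbours' median removed 3 passed: E2F1 against E2F2, GINS2 against GINS4 and ORC1 against ORC6. The change of CCNE1 against CCNE2 was 0.47 (exact permutation adjusted p = 0.0596), and PRIM1 against PRIM2, POLE against POLE2 and E2F1 against E2F8 did not pass (exact permutation adjusted p = 0.119, 0.595 and 0.179). Without YAPS127A replicate 1, 2 or 4 no pair passed; without any 1 of the other arrays 6 to 9 pairs passed. With 4 arrays against 4 the smallest p of the exact permutation test is 0.0286.

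The members that changed were unevenly placed over the chromosomes. The 3 genes that fell, MCM4, GINS4 and CCNE2, are the 3 list members on chromosome 8, where 40.6% of 438 genes with a signal above the median fell and 10.3% rose (median log2 difference -0.18). On chromosomes 10, 13, 16 and 22, which earlier results of these arrays had shown to be raised as a whole, 6 of 8 members rose and none fell: MCM10 on 10, RFC3 on 13, CDT1, GINS2 and GINS3 on 16, and MCM5 on 22. Of the 1581 brighter genes on these chromosomes, 55.3% rose and 3.67% fell (median +0.28). On the remaining chromosomes 3 of 28 members rose (ORC1 on 1, POLA2 on 11 and GINS1 on 20) and none fell, where 16.3% of 10464 brighter genes rose and 21.8% fell. The grouping of chromosomes was made with these results known and has no test of its own.

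Each gene can be set beside its neighbours, here the median log2 difference of up to 50 brighter genes around it, 25 to each side. The neighbours of MCM10 lay higher by 0.57, against 0.59 for the gene, and those of GINS3 higher by 0.39, against 0.35. Around ORC1 and GINS2 the neighbours were higher by 0.35 in each case, around RFC3 by 0.30 and around CDT1 by 0.25, which is less than the rise of each gene. ORC6 lies on chromosome 16 among neighbours that were higher by 0.38, while it differed by +0.09. The neighbours of MCM4, CCNE2 and GINS4 lay lower, at -0.23, -0.20 and -0.18, against -0.34, -0.50 and -0.75. For GINS1 and POLA2 the neighbours differed by -0.002 and +0.05, beside rises of 0.22 and 0.36. The median size of the neighbours' difference was 0.24 for the 12 called members and 0.04 for the 27 others. What the neighbours share with a gene was not tested.

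With the brighter neighbours' median subtracted on each array before the fit, 6 members passed, 4 higher and 2 lower. GINS4 (-0.57, adjusted p = 0.00484), POLA2 (+0.32, adjusted p = 0.0178) and RFC3 (+0.23, adjusted p = 0.0158) kept their calls, and E2F8 (+0.21), POLD1 (+0.30) and ORC6 (-0.29) gained one. MCM10, GINS2, GINS3, ORC1, CDT1 and MCM4 then differed by +0.02, +0.18, -0.04, +0.14, +0.23 and -0.11 and did not pass. CCNE2 (-0.29, adjusted p = 0.0693), MCM5 (+0.29, adjusted p = 0.0806) and GINS1 (+0.22, adjusted p = 0.0537) came close to the threshold without passing. With all neighbours in place of the brighter ones, 6 members also passed, namely ORC1, GINS1, GINS2, POLA2 and RFC3 higher and GINS4 lower. The subtraction presumes that a gene's signal follows its neighbours and can create a difference where it does not.

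**Figure D4:**
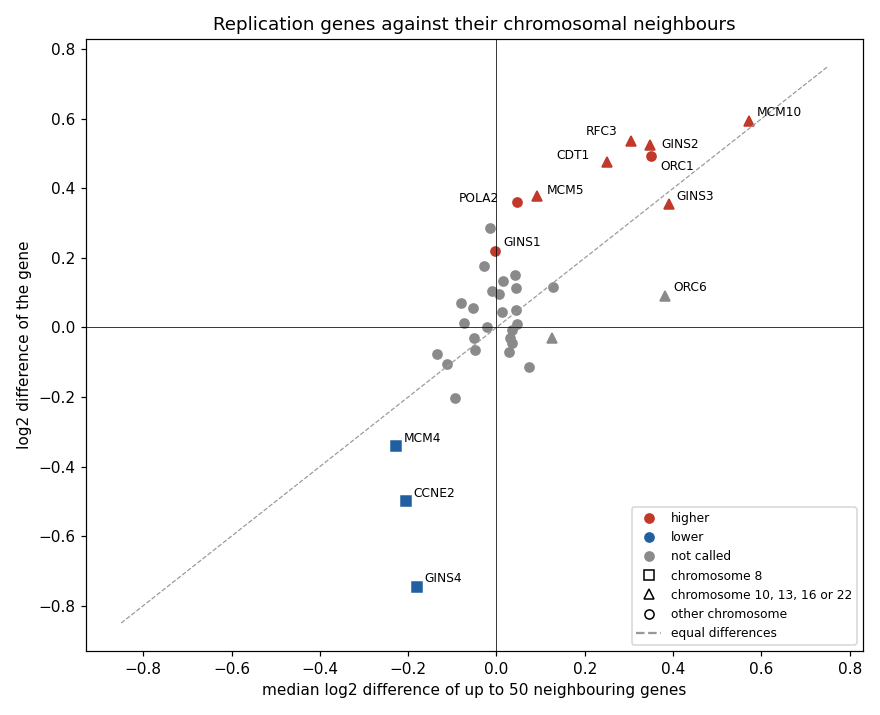
Log2 difference (YAPS127A minus empty vector) of each of 39 replication genes against the median difference of up to 50 brighter neighbouring genes; squares lie on chromosome 8, triangles on 10, 13, 16 or 22, and the dashed line marks equal differences. MCM10 and GINS3 lie near the line, GINS4 lies far below it, and POLA2 and GINS1 rose where the neighbours hardly moved.

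Further genes of the replication pathway, in 6 lists of 83 measured genes that are not members, gave 10 higher and 14 lower, or 28.9% called. All 83 had signals above the median, where 41.2% of genes were called, against 28.7% of all genes. Their median log2 difference was -0.005. Among 16 other origin and helicase factors 1 rose and 5 fell: CDC7, the kinase that fires origins, rose by 0.61 (SE 0.06, adjusted p = 2.53e-05) among neighbours higher by 0.41 (+0.20 with their median removed, adjusted p = 0.0556), and MTBP and ORC5, which serve origin firing and recognition, fell (-0.59 and -0.37). MTBP lies on chromosome 8 with neighbours at -0.29. Averaged over their probe sets, MTBP and ORC5 were at -0.12 and -0.08 and did not pass. Among 18 polymerase, clamp and fork factors 2 rose and 3 fell, with RPA3, of the single-strand binding complex, higher by 0.31 and ATAD5, the clamp unloader, and TOP2A lower (-0.55 and -0.36). Of 8 histone chaperone and chromatin genes, HELLS alone was called (-0.38, adjusted p = 0.0191), and it was lost without empty vector replicate 1 (-0.30, adjusted p = 0.0591) and with the mean over its probe sets (-0.02).

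Of 11 measured genes of nucleotide supply, 3 were called (27.3%), beside 41.2% of the brighter genes and 28.7% of all genes. TYMS, which makes thymidylate, and TK2, the mitochondrial thymidine kinase, rose by 0.36 and 0.76, and RRM2B, the p53-inducible ribonucleotide reductase subunit, fell (-0.34). TK2 lies on chromosome 16 with neighbours higher by 0.37. RRM2B lies on chromosome 8 with neighbours at -0.18, and it did not pass with the brighter neighbours' median removed (-0.16, adjusted p = 0.201) or without the 2 arrays of largest actin gap (-0.26, adjusted p = 0.0664). Of 18 genes of RB, E2F and G1/S control 4 rose and 2 fell (33.3% called, beside the same shares). The inhibitor gene CDKN1A fell (-0.61, SE 0.09, adjusted p = 0.000265), as did E2F5 (-0.84, SE 0.09, adjusted p = 2.92e-05), which lies on chromosome 8 with neighbours at -0.40, while RBL2 on chromosome 16 rose by 0.57 with neighbours higher by 0.44 (+0.13 with their median removed, adjusted p = 0.299). Of 12 replication stress genes 1 rose and 2 fell (25% called, below both shares). The kinase gene CHEK2 rose by 0.28 (+0.17 with the brighter neighbours' median removed, adjusted p = 0.061). The nuclease gene EXO1 (-0.45) and the clamp gene HUS1 (-0.24) fell. HUS1 lost its call without empty vector replicate 2, 3 or 4 or YAPS127A replicate 2 or 4 (-0.24 to -0.20, adjusted p = 0.0525 to 0.0647) and with the mean over its probe sets (-0.06).

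Mitosis genes, the next program of the cell cycle, gave 2 higher and 4 lower of 20, or 30% called beside 41.2% of the brighter genes, with a median of -0.11. KIF20A and CENPF, of the spindle and kinetochore, fell (-0.58 and -0.70), and CDK1, the mitotic kinase, rose by 0.29 amid neighbours higher by 0.30. Negative differences were seen in 15 of the 20 mitosis genes and in 14 of the 39 replication genes, beside 6270 of the 12494 brighter genes. The difference between the lists was not tested.

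**Figure D5:**
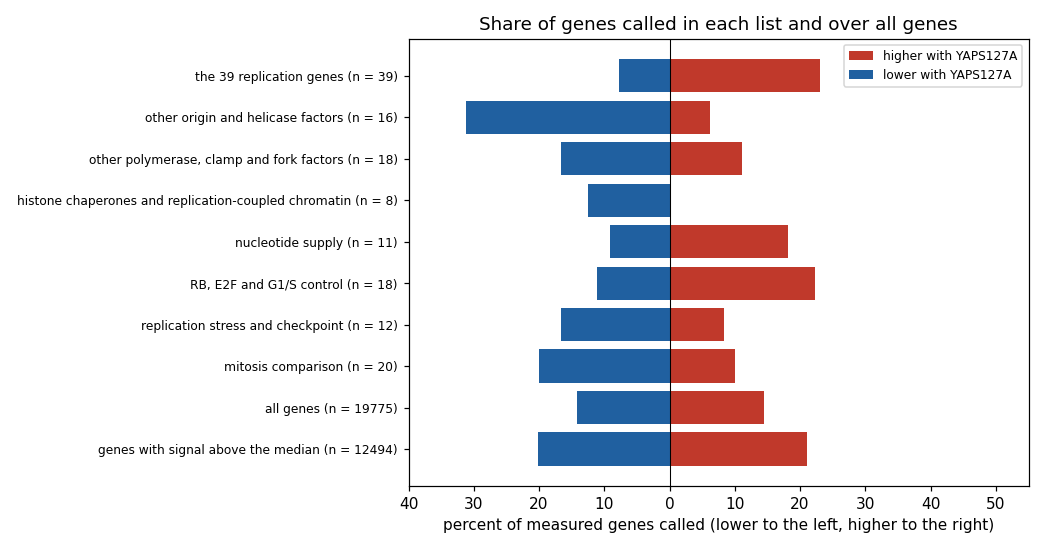
Percent of measured genes called lower (left, blue) and higher (right, red) with YAPS127A at a limma adjusted p under 0.05, for the 39 replication genes, 6 lists of other pathway genes, 20 mitosis genes and all genes. The 39 replication genes, at 30.8% in all, lie between all genes (28.7%) and the genes with a signal above the median (41.2%).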

How the data were processed

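Total RNA was amplified, labelled with biotin and hybridised to single-colour arrays, per the labels' protocols. The values the authors deposited were taken as log2 signals, 1 per probe set, from their range of 1.63 to 14.8, because the table has no header line on units. The normalization the authors applied was not given in the sources used here. Array medians were nearly equal, so a shift of all transcripts would not be seen. No further scaling was applied.

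Of 54613 probe sets (62 controls set aside), the platform annotation of the array names 1 gene on 41091, more than 1 on 1801 and no gene on 11721. Symbols follow RefSeq GRCh38.p14 by gene ID (41037 matched), and the brightest probe set over all arrays stands for its gene. No column was of another sample.

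Groups were compared with limma 3.58.1 (R 4.3.3), lmFit and eBayes with no covariate, 11.41 total degrees of freedom, and Benjamini-Hochberg adjustment over all probe sets at 0.05. Adjusted p-values are limma's unless an exact permutation test is named. Errors beside a difference are SE, beside a level SD. The number of arrays limits the precision. Named were all members and, for each further list, up to 3 called genes of lowest p. The members and lists were chosen with earlier results of these data known. The E2F and other motifs were chosen after seeing the data and searched exactly on both strands. Figures were drawn with matplotlib 3.10.9 (Python 3.11.15).

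The fit was tested on simulated data. Alternatives were quantile normalization, centring, leaving out dim probe sets, trend and robust eBayes, array weights, a replicate block, each array left out, the mean over probe sets, the gap between actin 3' and 5' probe sets as a covariate and the neighbours' median removed. Added after seeing the data were the brighter neighbours' median and leaving out the 2 arrays of largest actin gap.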

Additional observations from a re-analysis of the deposited data

Results flagged for a closer look

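In 4 of 126 groups of arrays examined for named genes (3.17%), the highest or lowest array stood apart from the rest; chance gives about 1 in 20. For ORC1, YAPS127A replicate 2 at 8.91 lay above the other 4 arrays (8.63 to 8.71), a gap of 0.719 of the range. For GINS3, YAPS127A replicate 4 at 11.72 lay below the others (11.84 to 11.88), a gap of 0.718. For KIF20A and TOP2A, YAPS127A replicate 1 stood apart, lowest for the first at 10.58 (others 10.87 to 10.92, gap 0.84 of the range) and highest for the other at 12.87 (others 12.66 to 12.72, gap 0.744). Without these arrays ORC1, GINS3, KIF20A and TOP2A kept their calls.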

How the results depend on the processing

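Quantile normalization, centring, dim probe sets left out, trend and robust eBayes, and array weights kept all 12 called replication genes. Some of these settings added calls: CHAF1A and E2F8 with dim probe sets left out, FEN1 with trend and robust eBayes, and POLD1 with array weights. The mean over probe sets lost RFC3 and gained CHAF1A and E2F8. Leaving out any 1 array gave 10 to 12 called (7 to 9 higher, 3 lower), with losses in GINS1 and MCM5 alone. With the neighbours' median removed, 6 members passed (5 higher, 1 lower), and with the brighter neighbours' median also 6 (4 higher). Under the latter GINS3 (-0.037), ORC6 (-0.292) and CDK1 (-0.0101) turned negative, as did CDH1 (-0.13, and -0.10 with all neighbours) and GINS2 against GINS1 (-0.0478); the cause was not tested. With the mean over probe sets, 16 rather than 10 other pathway genes were higher. The actin covariate lost GINS1 (adjusted p = 0.0505) and gained POLD1. Of 15 pairs, 3 passed with either neighbours' median removed and 0 without the 2 arrays of largest actin gap (1 in each group); leaving out 1 array gave 0 to 9, where the exact permutation test of 4 arrays against 4 is limited to p = 0.0286. Other pathway genes called ranged from 19 to 25 over the left-out arrays. The deviations of same-numbered arrays had correlations of -0.319, 0.011, -0.13 and 0.024. These cannot exclude a weak pairing, and the labels do not say whether the numbers pair the samples. With the replicate block, 8 members were called (6 higher, 2 lower), without CDT1, GINS1, MCM4 and MCM5. GINS4 has 2 probe sets and RFC3 has 1 with signals below the median. Each gene also has 1 further probe set above the median, which was called the same way as its brightest.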
